A study of Rattus norvegicus with 8 samples.

Results

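Crem and Sik1, genes of the feedback that restrains CREB signalling, and Hdac5, a deacetylase that SIK kinases phosphorylate, were followed through 8 RNA-sequencing libraries of INS-1 cells, a rat insulinoma line that secretes insulin and stands in for beta cells of the pancreas. They were taken by gene symbol from a pair of deposited expression tables, where all 3 were among the 1344 genes of the glucose table and Crem and Sik1 were among the 566 genes of the A-CREB table, so that they make up 3 of 1586 distinct names in all. Hdac5 in the A-CREB experiment was not analysed here. The glucose table holds cells kept for 3 days at 20 mM or at 2.8 mM glucose, each given for 2 h either 10 uM forskolin, which activates adenylyl cyclase and so raises cAMP, or its vehicle DMSO. The A-CREB table holds cells at 11 mM glucose that carried, for 2 days, an adenovirus encoding A-CREB, a dominant-negative protein that blocks DNA binding by CREB, or that received no virus, again with forskolin or DMSO. The series asked how glucose exposure and CREB activity change the gene response to cAMP in beta cells. Infection and A-CREB cannot be told apart in the second table, since its control cells had no virus, and all groups come from a tumour line.

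cAMP frees the catalytic subunits of protein kinase A, which phosphorylate and activate the transcription factor CREB and at the same time let its CRTC coactivators enter the nucleus. CREB then switches on genes that end its own signal. Crem encodes a family of CREB relatives, among them ICER, a short repressor made from an internal promoter that binds CRE sites without activating them, and Sik1 encodes salt-inducible kinase, which phosphorylates CRTC coactivators and holds them in the cytoplasm. The same kinases phosphorylate class IIa histone deacetylases such as Hdac5, a corepressor of MEF2 transcription factors, and keep them out of the nucleus.

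Levels are FPKM (fragments counted relative to the transcript's length and to the size of the library), so that levels of different genes can be set side by side. Each group had 1 library, so no value below has a replicate check and no test between conditions was run. A gene was listed only if its forskolin value was more than 2 times its DMSO value in the condition that served as reference, 2.8 mM glucose in the first table and cells without virus in the second. The lowest such ratio was 2.00 in both, and a high fold in the reference condition is therefore a description and not a finding. Listing by that ratio by itself favours a lower fold, a higher DMSO level and a lower forskolin level in the other condition, so each count of the 3 genes is given beside the share of all listed genes.

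The total number of reads was not given in the sources used here. From the spacing of the lowest values, estimated depth relative to the reference DMSO library was between 0.746 and 1.23 in the glucose table and between 0.907 and 1.35 in the A-CREB table. At the median worth of a read, the lowest level of the 3 genes, Sik1 at 2.62 FPKM in no-virus DMSO, stands for about 24 reads, a number that shifts with transcript length. Of 10 beta cell markers only Mafa and Ucn3 were listed in the glucose table and only Mafa and Pdx1 in the A-CREB table, so the tables allow only a partial check of the cell type. Mafa, an insulin gene activator, was at 77.3 FPKM with forskolin and 14.6 FPKM with DMSO at 20 mM, against 639 and 149 FPKM at 2.8 mM. In the A-CREB table Mafa was at 90.2 FPKM with forskolin and 24.5 FPKM with DMSO with A-CREB, against 474 and 54.2 FPKM without virus. Ucn3, a peptide of mature beta cells, was listed at 0 in both 20 mM libraries, against 3.20 FPKM with forskolin and 1.33 FPKM with DMSO at 2.8 mM. Pdx1, a beta cell transcription factor, was at 108 and 50.7 FPKM with A-CREB, against 146 and 69.8 FPKM without virus. Of 16 markers of alpha, delta, acinar, duct, stromal, endothelial and immune cells, the glucose table listed Ttr and Kdr. Kdr was at 32.3 FPKM with forskolin and 0.373 FPKM with DMSO at 20 mM, against 41.3 and 0.252 FPKM at 2.8 mM. Ttr was at 2.75 FPKM with forskolin and 0.924 FPKM with DMSO at 20 mM, against 7.03 and 0.572 FPKM at 2.8 mM. In the A-CREB table Kdr alone was listed, at 0.475 FPKM with forskolin and 0.0914 FPKM with DMSO with A-CREB, against 3.98 and 0.0491 FPKM without virus, and the part of the beta cell and other markers in the results was not tested.

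Promoter sequence is shown for Crem and Sik1, since both belong to the strongest forskolin responses of these libraries and CREB binds the palindrome TGACGTCA and the short sites TGACG and CGTCA within it. Hdac5, with its weaker response, is shown beside them. The windows run 300 bases, from 250 before to 50 after a transcript start, so that the start is base 251, and come from RefSeq on the GRCr8 assembly. RefSeq gave 3 windows for Crem, 1 for Sik1 and 1 for Hdac5. The first Crem window, at chr17:58933816-58934115 on the plus strand, held a short site at bases 10 to 14 and another at bases 245 to 249. The second, at chr17:58984547-58984846, and the third, at chr17:58985240-58985539, lie inside the gene, where the ICER promoter is known to be, although the table does not name the transcript that starts at each. Sik1 is at chr20:9958597-9958896 on the minus strand and Hdac5 at chr10:87688005-87688304 on the minus strand. Capitals mark the palindrome and the short sites on either strand, and all sequences are written along the strand of the gene.
Crem window 2: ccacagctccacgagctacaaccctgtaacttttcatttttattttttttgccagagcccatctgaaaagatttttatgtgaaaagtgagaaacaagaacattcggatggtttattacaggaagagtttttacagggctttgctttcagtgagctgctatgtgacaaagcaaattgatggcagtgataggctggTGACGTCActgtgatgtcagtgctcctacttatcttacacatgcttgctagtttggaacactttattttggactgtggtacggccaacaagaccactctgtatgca
Crem window 3: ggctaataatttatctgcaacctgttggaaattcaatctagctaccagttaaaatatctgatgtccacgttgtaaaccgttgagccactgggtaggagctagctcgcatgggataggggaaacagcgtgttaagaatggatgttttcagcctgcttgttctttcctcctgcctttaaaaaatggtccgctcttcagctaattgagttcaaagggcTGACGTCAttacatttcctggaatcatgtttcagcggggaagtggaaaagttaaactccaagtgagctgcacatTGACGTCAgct
Sik1 window: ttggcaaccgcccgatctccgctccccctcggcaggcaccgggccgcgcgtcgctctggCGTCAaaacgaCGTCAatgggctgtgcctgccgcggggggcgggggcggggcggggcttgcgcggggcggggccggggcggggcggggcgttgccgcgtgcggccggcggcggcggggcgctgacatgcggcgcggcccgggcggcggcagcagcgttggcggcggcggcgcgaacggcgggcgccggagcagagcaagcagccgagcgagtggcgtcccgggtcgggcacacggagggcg
Hdac5 window: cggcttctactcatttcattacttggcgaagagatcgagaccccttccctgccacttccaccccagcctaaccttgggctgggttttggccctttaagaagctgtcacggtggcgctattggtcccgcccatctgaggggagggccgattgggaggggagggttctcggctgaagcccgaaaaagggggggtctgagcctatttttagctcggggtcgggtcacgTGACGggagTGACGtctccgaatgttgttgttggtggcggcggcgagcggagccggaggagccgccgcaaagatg

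Crem window 2 held 1 full palindrome, at bases 195 to 202, and Crem window 3 held 2, at bases 216 to 223 and 290 to 297. The Sik1 window held a pair of short sites, at bases 60 to 64 and 71 to 75, and no full palindrome. The Hdac5 window also held a pair of short sites, at bases 226 to 230 and 235 to 239. Of all 33469 rat windows 1.83% held the full palindrome and 21.2% a full or a short site. Counted over genes with any window, the palindrome was found in 74 of 1052 genes of the glucose table (7.03%), in 33 of 438 of the A-CREB table (7.53%) and in 549 of all 27457 genes (2.00%). A full or a short site was found in 41.0%, 37.4% and 23.0% of the same genes, so short sites such as those of Sik1 and Hdac5 were common. Crem, with 3 windows, had more room for a match than a gene with 1. These matches are letters in a window and do not show that CREB was bound.

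Crem, the source of the repressor ICER and of CREB-like activators, was at 375 FPKM with forskolin and 23.0 FPKM with DMSO at 20 mM glucose, against 738 FPKM with forskolin and 7.73 FPKM with DMSO at 2.8 mM. The 20 mM pair thus lay inside the 2.8 mM pair, with a higher DMSO level and a lower forskolin level. With A-CREB it was at 48.7 FPKM with forskolin and 17.4 FPKM with DMSO, against 465 and 7.46 FPKM without virus. The A-CREB pair lay inside the no-virus pair too. Each part of this pattern, taken by any amount, was common among the listed genes. Of 1344 genes, 766 were higher in DMSO at 20 mM and 1081 were lower in forskolin. Of 566 genes, 345 were higher in DMSO with A-CREB and 444 were lower in forskolin. In such bulk RNA, fewer responding cells and less RNA per cell cannot be told apart. The tables give 1 value per gene, so ICER and the longer Crem transcripts could not be told apart.

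Sik1, the kinase that acts on CRTC coactivators, was at 269 FPKM with forskolin and 11.0 FPKM with DMSO at 20 mM glucose, against 517 and 4.66 FPKM at 2.8 mM. With A-CREB it was at 30.1 FPKM with forskolin and 5.59 FPKM with DMSO, against 314 and 2.62 FPKM without virus. The order of its 4 libraries was that of Crem in each table: reference forskolin highest, then forskolin in the other condition, then DMSO in the other condition, with reference DMSO lowest.

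Hdac5, the class IIa deacetylase, had another pattern. It was at 72.0 FPKM with forskolin and 73.4 FPKM with DMSO at 20 mM glucose, against 193 FPKM with forskolin and 87.5 FPKM with DMSO at 2.8 mM. The 2.8 mM forskolin library stood apart and the other 3 lay between 72.0 and 87.5 FPKM. Its 2.8 mM ratio of 2.20 was just inside the ratio above 2 that the listing required, and its fold ranked 990 of 1344.

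Folds were taken as log2((forskolin + 0.1)/(DMSO + 0.1)), a scale that understates the folds of weakly expressed genes. For Crem the response was 16.3-fold at 20 mM and 94.3-fold at 2.8 mM, and for Sik1 24.3-fold and 109-fold. For Hdac5 it was 0.981-fold at 20 mM and 2.20-fold at 2.8 mM. Subtracting the log2 fold at 2.8 mM from that at 20 mM gave a change of -2.54 for Crem, -2.16 for Sik1 and -1.17 for Hdac5, where the median of all listed genes was -0.81. All 3 genes were past a 1.5-fold decrease of the fold, as were 65.6% of the listed genes, while 2.08% had a fold higher by that much and none of the 3 did. At least a 2-fold response at 20 mM was kept by Crem and Sik1 and not by Hdac5, where 37.2% of listed genes kept one. Hdac5 was among the 12.9% of listed genes whose forskolin value lay below the DMSO value at 20 mM.

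Among the listed genes, chosen by their response at 2.8 mM, Crem and Sik1 remained among the strongest responses at 20 mM. Their folds ranked 21 and 12 of 1344 there, against 14 and 13 at 2.8 mM. Their forskolin levels ranked 41 and 73 at 20 mM, against 31 and 57 at 2.8 mM. In DMSO they ranked 365 and 549 at 20 mM, against 643 and 740 at 2.8 mM. Genes that responded to forskolin only at 20 mM were not listed and have no place in these ranks.

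The lower fold was made up of a DMSO and a forskolin part that differed between the genes. In DMSO, Crem was 2.95 times and Sik1 2.33 times as high at 20 mM as at 2.8 mM, with log2 ratios of 1.56 and 1.22. These 2 of the 3 genes were higher in DMSO by more than 1.5 times, as were 28.2% of the listed genes, and Hdac5 had a log2 ratio of -0.25. In forskolin, Crem was lower at 20 mM by 1.97 times, Sik1 by 1.92 times and Hdac5 by 2.67 times, with log2 ratios of -0.98, -0.94 and -1.42. All 3 were lower in forskolin by more than 1.5 times, as were 54.6% of the listed genes, while none of the 3 and 7.14% of the listed genes were higher. The medians of all listed genes were 0.14 in DMSO and -0.67 in forskolin. Relative to these medians the DMSO ratios were 1.42 for Crem, 1.08 for Sik1 and -0.39 for Hdac5, and the forskolin ratios were -0.31, -0.27 and -0.75. Seen in this way, Crem and Sik1 stood apart from the median of the table mainly in DMSO and Hdac5 mainly in forskolin. They did not stand apart in DMSO from the 37 genes of at least 32-fold at 2.8 mM, which include Crem and Sik1. Those genes had a median DMSO ratio of 0.89, with an interquartile range of -0.08 to 1.69 that holds Crem and Sik1. Their median forskolin ratio was -1.32. A higher DMSO level together with a lower forskolin level, each by more than 1.5 times, was found for Crem and Sik1 and for 6.62% of the listed genes. Neither gene kept the forskolin part at a limit of 2-fold, or at 1.5-fold once the table's median was subtracted.

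With A-CREB the response of Crem was 2.80-fold and that of Sik1 5.30-fold, against 61.6-fold and 115-fold without virus. The change of the log2 fold, A-CREB minus no virus, was -4.46 for Crem and -4.44 for Sik1, where the median of all listed genes was -1.20. These changes ranked 10 and 11 from the lowest of 566. The ranks in part restate the high folds without virus. The 10 genes of at least 32-fold without virus, both among them, had a median change of -4.60. Both genes were past a 1.5-fold decrease of the fold, as were 79.0% of the listed genes, while neither and 3.18% had a fold higher by that much. Both kept at least a 2-fold response, as did 19.1%. Their folds ranked 53 and 19 of 566 with A-CREB, against 7 and 4 without virus. Such ranks are places among genes chosen by their response without virus.

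**Figure D1:**
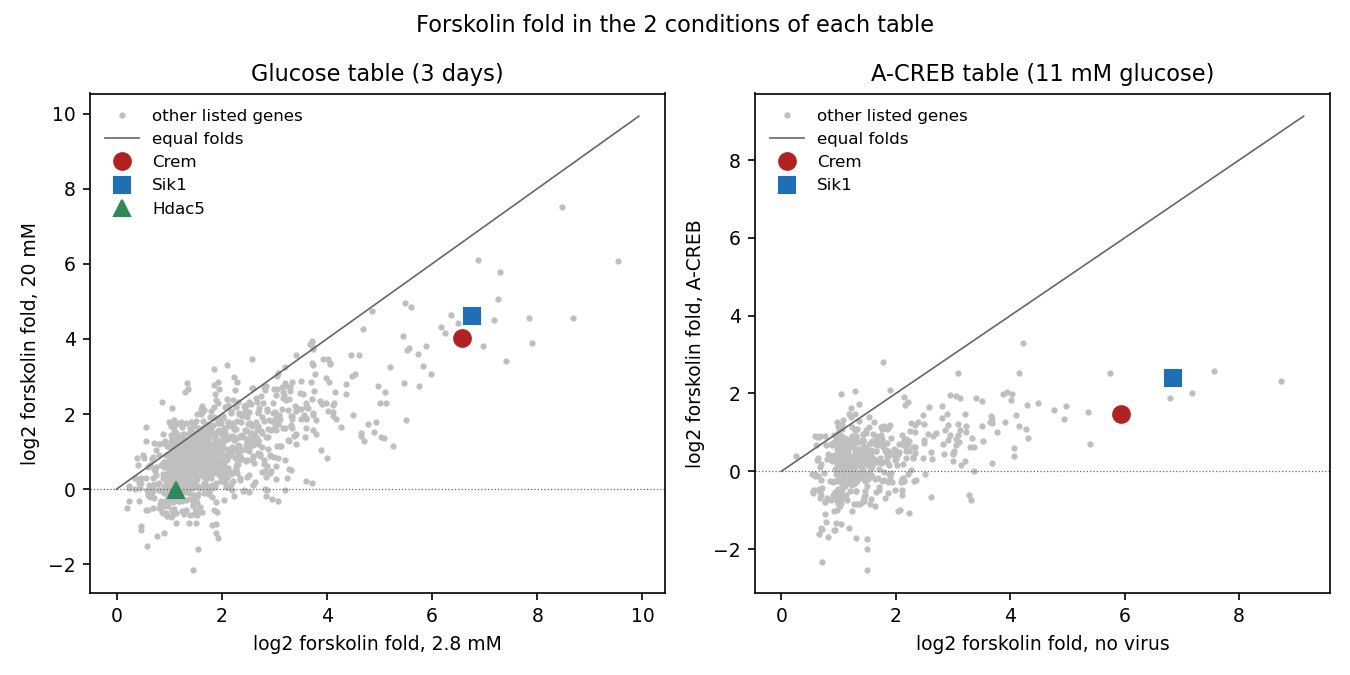
Forskolin log2 fold at 20 mM against 2.8 mM glucose (left) and with A-CREB against no virus (right), 1 point per listed gene without a value of 0 in any library, with the line of equal folds. Crem and Sik1 lie below the line in both tables, with changes of -2.54 and -2.16 on the left and of -4.46 and -4.44 on the right, and Hdac5 lies at -0.03 at 20 mM.

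In the A-CREB table most of the lower fold lay in the forskolin libraries. Crem was lower with A-CREB in forskolin by 9.53 times and Sik1 by 10.4 times, with log2 ratios of -3.25 and -3.38. These ratios ranked 23 and 17 from the lowest of 566, where the 10 genes of at least 32-fold without virus had a median of -3.30. Both were lower in forskolin by more than 1.5 times, as were 61.0% of the listed genes, while neither and 9.01% were higher. In DMSO they were higher with A-CREB, Crem by 2.31 times and Sik1 by 2.09 times, with log2 ratios of 1.21 and 1.06. Both were higher in DMSO by more than 1.5 times, as were 38.5% of the listed genes. The medians of all listed genes were 0.36 in DMSO and -0.90 in forskolin. Relative to them Crem was at 0.85 in DMSO and -2.35 in forskolin, and Sik1 at 0.71 and -2.48. A higher DMSO level together with a lower forskolin level, each by more than 1.5 times, was found for both genes and for 13.3% of the listed genes.

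**Figure D2:**
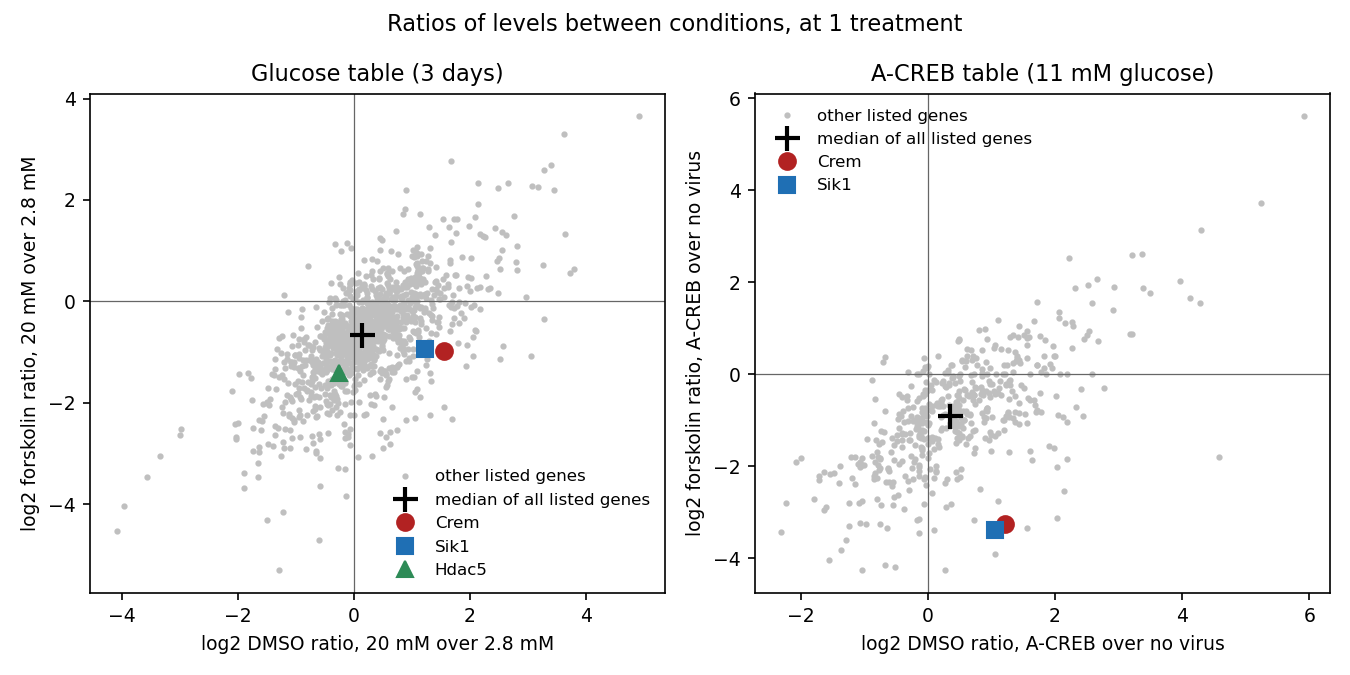
Log2 ratio of levels at 1 treatment, DMSO across and forskolin upwards, for 20 mM over 2.8 mM (left) and A-CREB over no virus (right), 1 point per listed gene without a value of 0. Crem and Sik1 lie right of 0 and below 0 in both tables, with forskolin ratios of -0.98 and -0.94 on the left and -3.25 and -3.38 on the right.

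The forskolin increment, the forskolin level minus the DMSO level in FPKM, needs no pseudocount. For Crem it was 352 FPKM at 20 mM and 731 FPKM at 2.8 mM, so that the 20 mM increment was 48.2% of the other. For Sik1 it was 258 FPKM at 20 mM and 513 FPKM at 2.8 mM, or 50.4%. Hdac5 had -1.40 FPKM at 20 mM and 105 FPKM at 2.8 mM, or -1.33%. The median of all listed genes was 35.2%, with an interquartile range of 12.2% to 59.4%, so Crem and Sik1 lay in the upper part of that range and Hdac5 below it. With A-CREB the increment of Crem was 31.4 FPKM, against 458 FPKM without virus (6.85%), and that of Sik1 was 24.5 FPKM, against 311 FPKM (7.87%). The median of that table was 12.2%, with an interquartile range of -10.8% to 33.0%. In increments Crem and Sik1 thus lay above the median for glucose and below it for A-CREB, while their changes of log2 fold lay below the median change in both tables.

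Crem and Sik1 were also set beside genes of at least 32-fold in the reference condition, a limit chosen after the values were seen. Such a limit by itself favours a lower fold, a higher DMSO level and a lower forskolin level in the other condition. It does so more than the 2-fold listing behind the shares of all listed genes, so those shares are not a like background. At 2.8 mM, 37 genes reached it, with a median change of log2 fold of -2.52 and an interquartile range of -3.15 to -1.87, which holds both genes. Of these 37 genes, 20 were past a 1.5-fold increase in DMSO at 20 mM, 31 were past a 1.5-fold decrease in forskolin and 15 were both, where the shares of all listed genes were 28.2%, 54.6% and 6.62%. Their increments at 20 mM had a median of 36.8%. Without virus, 10 genes reached the limit, with a median change of -4.60, an interquartile range of -4.96 to -4.45 and a median increment of 7.06%. Of these 10 genes, 8 were higher in DMSO with A-CREB and all 10 were lower in forskolin, each by more than 1.5 times, where the shares of all listed genes were 38.5% and 61.0%. The change of Crem, at -4.46, lay just inside that range and that of Sik1, at -4.44, just outside it.

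**Figure D3:**
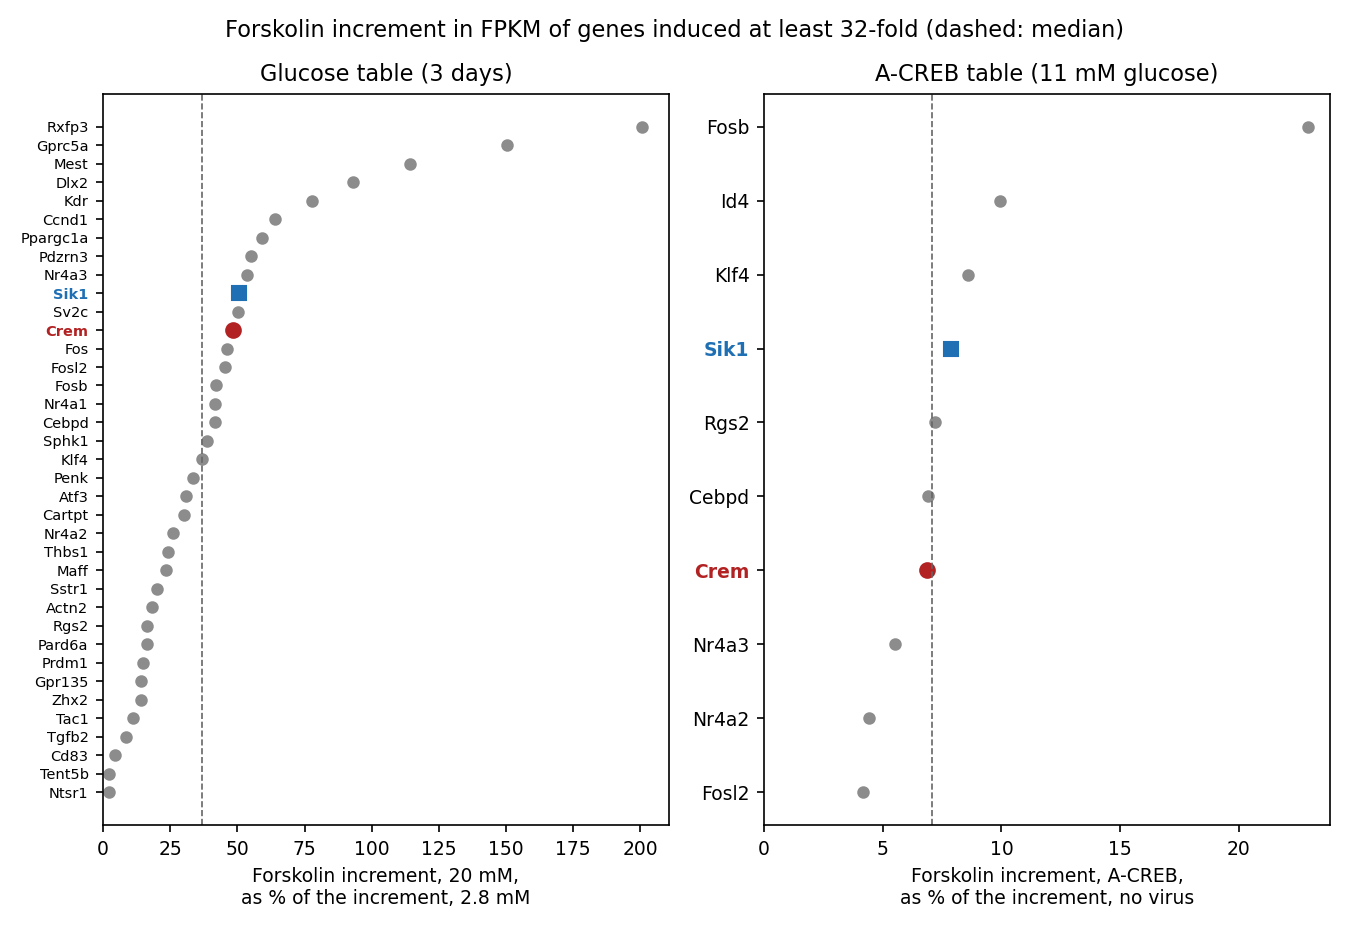
Forskolin increment (forskolin minus DMSO, FPKM) at 20 mM as a percent of that at 2.8 mM (left), and with A-CREB as a percent of that without virus (right), for genes of at least 32-fold in the reference condition, with the median dashed. Crem and Sik1 are at 48.2% and 50.4% on the left, above the median of 36.8%, and at 6.85% and 7.87% on the right, on either side of the median of 7.06%.

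The level of Crem was next compared with that of Sik1. With forskolin, the ratio of Crem to Sik1 in FPKM was 1.39 at 20 mM and 1.43 at 2.8 mM, and it was 1.62 with A-CREB and 1.48 without virus. With DMSO it was 2.09 at 20 mM and 1.66 at 2.8 mM, and 3.11 with A-CREB and 2.84 without virus. Crem was the higher of the pair in all 8 libraries, and its excess was larger in each DMSO library than in the matching forskolin library. The larger excess in DMSO restates the higher forskolin folds of Sik1. The transcript lengths behind these FPKM were not given, and Crem has short and longer transcripts. The ratio is thus 1 of FPKM and not of numbers of transcripts.

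Genes with the pattern most like each were those with the smallest root mean square difference of log2(FPKM + 0.1), centred on the mean of the 4 libraries, among the 1049 genes of the glucose table and the 392 of the A-CREB table with a mean of at least 1 FPKM. Which genes come out depends on this measure: with Pearson's r in its place, 0 of the 4 most like Crem and 1 of the 4 most like Sik1 were found again in each table. In the glucose table the genes most like Crem were Sv2c, a synaptic vesicle glycoprotein, at 0.226, then Sik1 at 0.229, Fos, a subunit of AP-1, at 0.325 and the orphan nuclear receptor Nr4a1 at 0.333. Those most like Sik1 were Fos at 0.108, Crem at 0.229, Sv2c at 0.246 and Ccnd1, a cyclin, at 0.345. Fos was at 73.8 FPKM with forskolin and 2.61 FPKM with DMSO at 20 mM, against 155 and 1.24 FPKM at 2.8 mM, so its level was below that of Sik1 in each library, at the smallest of the distances to Crem or Sik1.

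In the A-CREB table the genes most like Crem were Id4, an inhibitor of bHLH factors, at 0.227, Rgs2, a regulator of G protein signalling, at 0.335, the receptor gene Kdr at 0.429 and Sik1 at 0.462. The place of Kdr is uncertain, since its DMSO levels, 0.0914 FPKM with A-CREB and 0.0491 FPKM without virus, lay below the pseudocount of 0.1 FPKM. Id4 was at 30.5 FPKM with forskolin and 10.6 FPKM with DMSO with A-CREB, against 206 and 4.89 FPKM without virus. Those most like Sik1 were Rgs2 at 0.229, Nr4a3, another nuclear receptor, at 0.292, the zinc finger factor Klf4 at 0.353 and the AP-1 subunit Fosl2 at 0.422. Crem came next after these, at 0.462. Rgs2 was at 32.3 FPKM with forskolin and 8.70 FPKM with DMSO with A-CREB, against 330.0 and 2.89 FPKM without virus. With 4 libraries a pattern has few degrees of freedom, and these distances are descriptions.

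**Figure D4:**
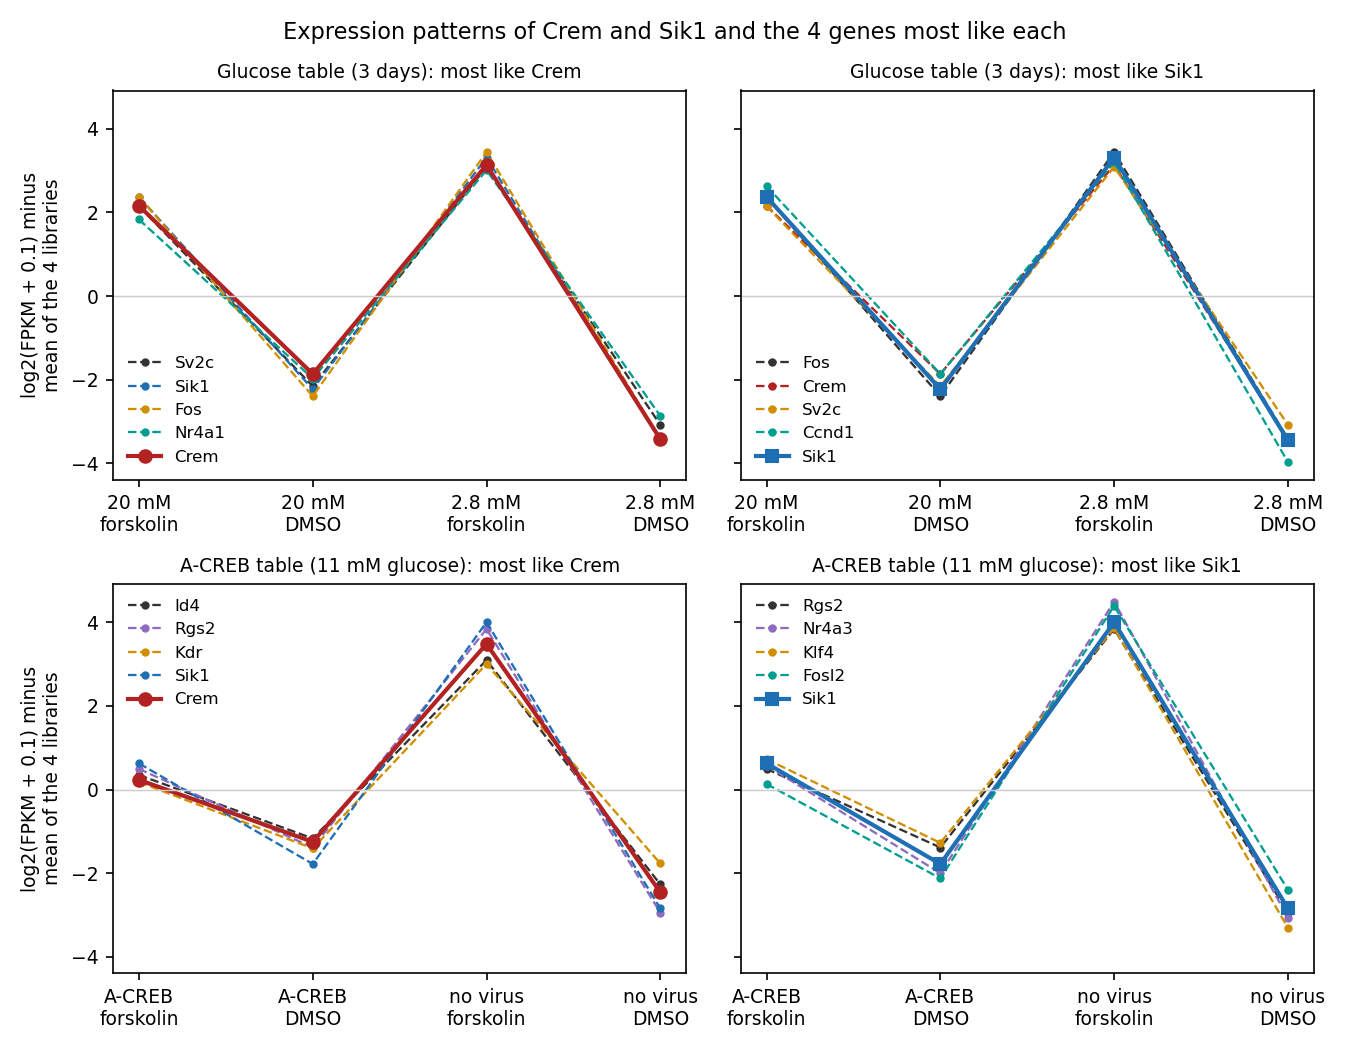
Log2(FPKM + 0.1) minus its mean over the 4 libraries of a table, for Crem (left) and Sik1 (right) with the 4 genes most like each, in the glucose table (top) and the A-CREB table (bottom). The lines of Crem and Sik1 lie 0.229 apart in root mean square in the glucose table and 0.462 apart in the A-CREB table.

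Other genes of the CREB module were taken from fixed lists. At 2.8 mM, Atf3 had a 32.4-fold and Ppargc1a a 44.4-fold response, and the listed genes of the CREB, coactivator, kinase and deacetylase lists other than these, Crem and Sik1 were at 3.62-fold or less. Of 17 genes of the CREB and ATF family 6 were in the glucose table, 3 of them with a fold lower at 20 mM by more than 1.5 times and none with a higher one. This is 3 of 6, where 65.6% of all listed genes had such a lower fold. Their median change was -0.77, beside -0.81 for all listed genes. Atf3, a stress-induced repressor of the family, was at 23.2 FPKM with forskolin and 4.65 FPKM with DMSO at 20 mM, against 62.1 and 1.82 FPKM at 2.8 mM. As for Crem, the 20 mM pair lay inside the 2.8 mM pair. Creb3l1, a membrane-bound factor of the secretory pathway, was at 7.42 and 5.22 FPKM at 20 mM, against 34.8 and 11.4 FPKM at 2.8 mM. Atf4, the effector of the integrated stress response, had 1.86-fold and 2.44-fold responses at 20 and 2.8 mM, and Creb3 had 1.63-fold and 2.20-fold ones. Creb3l2 had 3.99-fold and 3.04-fold responses at 20 and 2.8 mM, a difference under 1.5 times.

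With A-CREB, 3 of the 17 family genes were listed, with a median change of -0.79 beside -1.20 for all listed genes, and 2 of the 3, Crem and Creb3l2, had folds lower by over 1.5 times, where 79.0% of all listed genes had. Creb3l2 was at 8.10 FPKM with forskolin and 6.94 FPKM with DMSO with A-CREB, against 28.9 and 14.3 FPKM without virus. Unlike Crem, it was lower with A-CREB in DMSO as well. Atf3 was at 182 FPKM with forskolin and 55.3 FPKM with DMSO with A-CREB, against 176 and 68.5 FPKM without virus. Its fold was 3.29 with A-CREB and 2.57 without virus, a difference under 1.5 times.

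Of 10 CREB coactivators the list held, Ppargc1a alone appeared, and the CRTC genes on which Sik1 acts were not listed. Ppargc1a, a coactivator of mitochondrial and gluconeogenic genes and a CREB target itself, was at 51.6 FPKM with forskolin and 7.23 FPKM with DMSO at 20 mM, against 76.7 and 1.63 FPKM at 2.8 mM. With A-CREB it was at 7.28 and 1.84 FPKM, against 79.4 and 9.46 FPKM without virus. Its DMSO level was thus higher at 20 mM, like that of Crem and Sik1, but lower with A-CREB, where theirs were higher.

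Of 22 SIK and related kinase genes 3 were in the glucose table, with a median change of -1.0. Sik3, a close relative of Sik1, was at 30.2 FPKM with forskolin and 14.3 FPKM with DMSO at 20 mM, against 56.1 and 19.5 FPKM at 2.8 mM. Its folds of 2.11 and 2.87 were far below those of Sik1. Stk11, which encodes LKB1, the kinase that activates SIKs, was at 68.3 and 37.8 FPKM at 20 mM, against 110 and 30.5 FPKM at 2.8 mM. Sik1 alone of this list was in the A-CREB table.

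Of 17 class II deacetylase, MEF2 and 14-3-3 genes 4 were in the glucose table and none in the A-CREB table. Their median change was -0.37, and 1 of the 4, Hdac5, had a fold lower at 20 mM by over 1.5 times, where 65.6% of all listed genes had. Mef2d, a transcription factor that Hdac5 restrains, was at 175 FPKM with forskolin and 95.8 FPKM with DMSO at 20 mM, against 146 and 71.5 FPKM at 2.8 mM. Its levels at 20 and 2.8 mM differed by less than 1.5 times under either treatment. Ywhaz, a 14-3-3 protein of the kind that holds phosphorylated deacetylases in the cytoplasm, was at 657 and 473 FPKM at 20 mM, against 715 and 346 FPKM at 2.8 mM. Mef2b stayed at or below 0.464 FPKM in all 4 libraries. Of 9 genes for protein kinase A subunits and inhibitors, Prkar1a alone was listed, and in the glucose table only, at 564 FPKM with forskolin and 339 FPKM with DMSO at 20 mM, against 878 and 261 FPKM at 2.8 mM.

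Of 30 textbook CREB targets, Crem and Sik1 included, 28 were listed for glucose and 24 for A-CREB. A fold lower by more than 1.5 times was found for 20 of the 28 at 20 mM and for 22 of the 24 with A-CREB, and a higher one for 1 and for none. Of all listed genes, 65.6% and 79.0% had such a lower fold. Their median change was -1.69 at 20 mM, beside -0.81 for all listed genes, and -2.22 with A-CREB, beside -1.20. Their median log2 fold was 4.14 at 2.8 mM and 3.67 without virus, beside 1.45 and 1.34 for all listed genes. A higher fold in the reference condition by itself favours a larger decrease, so all listed genes are not a like background for these targets. In DMSO, 12 of the 28 were higher at 20 mM and 5 lower, in each case by more than 1.5 times, where 28.2% of all listed genes were higher and 15.9% lower. With A-CREB, 9 of the 24 were higher in DMSO and 6 lower, where 38.5% of all listed genes were higher and 17.3% lower. Crem and Sik1 belonged to the higher ones in both tables. Fosl2, the AP-1 subunit, which had the highest mean level of the listed targets in the A-CREB table, was at 48.5 FPKM with forskolin and 10.1 FPKM with DMSO with A-CREB, against 933 and 8.31 FPKM without virus. In the glucose table Vgf, a granin, had the highest mean level, and its increment at 20 mM was 79.5% of that at 2.8 mM. Id1, an inhibitor of bHLH factors, was at 53.6% in the same table. With A-CREB, the phosphatase gene Dusp1 and the antiproliferative gene Btg2 kept increments of 40.1% and 29.7%, both above the values of Crem and Sik1. The increment of Fosl2 was 45.3% at 20 mM and 4.16% with A-CREB, below Crem and Sik1 in each table. Over all listed targets the median increment was 44.0% at 20 mM and 8.23% with A-CREB.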

How the data were processed

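RNA of INS-1 cells was sequenced in 8 libraries, 1 per group. Per the submitters' processing notes, TopHat2, Cuffdiff and the rn5 build were used. The sources used here do not give versions, annotation, strand or the scaling of libraries. Deposited values are FPKM, scaled by the authors to transcript length and library size, in 2 tables that were treated separately. Names were matched to RefSeq (GRCr8), by symbol for 1220 and 522 genes of the glucose and A-CREB tables, by symbol in another case for 3 and 2, by gene ID for 22 and 9, by synonym for 86 and 31, and not at all for 13 and 2. The coordinates given are those of GRCr8 and not of rn5.

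Folds used a pseudocount of 0.1 FPKM. With 1 library per group, values are described by size: 2-fold for forskolin folds and 1.5-fold for changes between conditions. The genes and 6 lists were chosen with earlier results of these data known, so no list gives independent support. The genes named were Crem, Sik1 and Hdac5, all listed genes of the CREB family, coactivator, SIK, deacetylase and protein kinase A lists, the 4 genes most like Crem and Sik1 in each table, and the most expressed CREB targets, up to 4 per table. The calculations were tested on simulated tables. A read's worth was the step at which most ratios of low values fell on whole numbers (tolerance 1%). Alternatives were pseudocounts of 1 and 0.01 FPKM, means of at least 1 or 5 FPKM, a threshold of 2-fold, subtraction of the table's median ratio, and Pearson's r as the measure of likeness. Python 3.11.15, numpy 2.4.6, pandas 2.3.3 and matplotlib 3.10.9 were used.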

Additional observations from a re-analysis of the deposited data

Results flagged for a closer look

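The forskolin log2 fold of Hdac5 was -0.03 at 20 mM glucose and 1.14 at 2.8 mM, a difference of -1.17. It is given here because the forskolin value lay below the DMSO value at 20 mM and above it at 2.8 mM. The listing fixed the 2.8 mM direction for every gene, and 12.9% of all listed genes shared the 20 mM direction. At 20 mM the levels were 72.0 FPKM with forskolin and 73.4 FPKM with DMSO, a ratio of 0.981 that is well within the 1.5-fold used for changes. The difference was not tested, since each group had 1 library.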

How the results depend on the processing

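No paired analysis was possible because each group had 1 library. The 25 values of Crem, Sik1 and Hdac5 kept their direction under both other pseudocounts and moved by at most 0.41 on the log2 scale. With the median ratio of all listed genes subtracted, the forskolin ratio of 20 mM over 2.8 mM was -0.31 for Crem, -0.27 for Sik1 and -0.75 for Hdac5, and that of A-CREB over no virus was -2.35 for Crem and -2.48 for Sik1, while the 5 DMSO ratios moved by less than 1.5 times. Crem and Sik1 were then no longer past a 1.5-fold decrease in forskolin at 20 mM, while Hdac5 still was. At a threshold of 2-fold, the genes with a lower fold at 20 mM numbered 528, against 881 at 1.5-fold, those higher in DMSO 217, against 379, and those lower in forskolin 458, against 734. With A-CREB, those higher in DMSO numbered 145, against 218. At a mean of at least 5 FPKM these counts were 569, 215 and 486 at 20 mM, and 212 lower in fold, 56 higher in DMSO and 190 lower in forskolin with A-CREB, where fewer genes were counted. Those higher in DMSO with A-CREB numbered 133 with a pseudocount of 1 FPKM and 131 at a mean of at least 1 FPKM. By Pearson's r, which ignores the size of a response, 0 of the 4 genes most like Crem and 1 of the 4 most like Sik1 were found again in each table, and with a pseudocount of 1 FPKM 2 of the 4 most like Crem in the A-CREB table were. The absence of replicates, of total read numbers and of genes below 2-fold in the reference condition limits all of these values.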

Other observations

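The genes with the pattern most like Hdac5 in the glucose table, a set looked at after its values were seen, were Hsp90b1, a chaperone of the endoplasmic reticulum, at a root mean square difference of 0.049, then Tob2, Iqcb1 and Man1b1 at 0.053, 0.067 and 0.076. Hsp90b1 was at 396 FPKM with forskolin and 375 FPKM with DMSO at 20 mM, against 971 and 466 FPKM at 2.8 mM, so its 2.8 mM forskolin library stood apart as that of Hdac5 did. The listing required a 2.8 mM forskolin value above 2 times the DMSO value, so part of this likeness was built in. Man1b1, a mannosidase of the secretory pathway, was at 62.3 and 58.8 FPKM at 20 mM, against 172 and 69.0 FPKM at 2.8 mM.

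Set side by side without comparison, since the tables were made separately, the forskolin log2 fold of Crem was 6.56 at 2.8 mM, 5.94 at 11 mM without virus and 4.02 at 20 mM. For Sik1 it was 6.76, 6.85 and 4.60.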
